A study of Mus musculus with 18 samples.

Results

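The genes described here handle copper, bind platinum or store metal as metallothionein. They were chosen by name from the gene column shared by all 18 libraries and are the copper transporter genes Slc31a1 and Slc31a2, the copper-exporting ATPase gene Atp7a, the copper chaperone genes Atox1 and Ccs, the copper-trafficking gene Commd1, the metallothionein genes Mt1 and Mt2, and the metal-sensing transcription factor gene Mtf1. All 9 of the 9 genes were found among the 22852 genes listed, and all 9 passed the filter on low counts, as did 11305 genes in all. RNA-seq counts were deposited for bone marrow-derived macrophages of female C57BL/6 mice, grown for 7 days in medium with L929-conditioned supernatant, in 6 groups of 3 libraries. Unstimulated cells received no LPS. LPS-stimulated cells received 1 dose of 10 ng/ml LPS, for which the labels state no duration. LPS-primed cells received 100 ng/ml LPS for 24 h. LPS-tolerant cells received the same priming dose for 24 h, then fresh medium with 10 ng/ml LPS for 3 h. Primed and tolerant cells were also studied with 25 µM carboplatin, added 1 h before the priming dose and removed with the medium before the second dose, and the cells without carboplatin received vehicle. No transgene or deletion was involved, and which animals gave which replicate was not stated in the sources used here, so the p-values measure the spread between these libraries.

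Copper is needed by enzymes of respiration, antioxidant defence and matrix crosslinking, and is harmful when free in the cell. It enters through CTR1, the product of Slc31a1, a plasma membrane pore that has also been linked to the uptake of platinum drugs. CTR2, the product of the neighbouring gene Slc31a2, sits mainly in intracellular membranes. In the cytosol ATOX1 hands copper to the pump ATP7A, while CCS loads it into superoxide dismutase SOD1, and COMMD1 takes part in moving copper pumps between membranes and in limiting NF-κB activity. Metallothioneins are small cysteine-rich proteins that bind zinc and copper and can also bind platinum, and MTF1 is the zinc-sensing factor that switches on their genes through metal response elements. In macrophages, copper delivered by ATP7A to the phagosome is part of the defence against ingested microbes.

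The metallothionein promoters are shown because Mt1 and Mt2 carried the widest range of levels among the 9 genes. The RefSeq windows of 250 bases before each start lay on the plus strand of GRCm39, and each is printed up to the base before the canonical GENCODE transcript. The core of the metal response element (TGCACNC or TGCGCNC, searched on both strands) is in capitals. The Mt1 stretch is chr8:94905467-94905709 and the Mt2 stretch is chr8:94898996-94899131. The Mt2 stretch lies inside the annotated span of its gene, which begins at 94898819.
Mt1: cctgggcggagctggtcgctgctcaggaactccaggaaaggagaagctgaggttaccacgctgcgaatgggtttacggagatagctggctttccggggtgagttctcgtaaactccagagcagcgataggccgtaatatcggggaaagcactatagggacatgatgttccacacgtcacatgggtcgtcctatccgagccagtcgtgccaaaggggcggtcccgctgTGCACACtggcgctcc
Mt2: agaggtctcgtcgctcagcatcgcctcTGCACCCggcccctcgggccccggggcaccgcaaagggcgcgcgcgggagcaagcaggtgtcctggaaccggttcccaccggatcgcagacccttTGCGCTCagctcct
The Mt1 window held 1 core, from -23 to -17 relative to the RefSeq start. The Mt2 window held 3, from -223 to -217, from -128 to -122 and from -50 to -44, of which the last lies in the 114 bases that the canonical transcript covers and that are not printed. Of 32851 RefSeq promoters of this length, 21.4% held at least 1 core and 1.26% held at least 3. Since annotated starts differ, the 300 genomic bases before the canonical start codon were searched as well. There Mt1 held 5 cores, the farthest beginning 245 and the nearest 124 bases before the start codon, and Mt2 also held 5, beginning between 280 and 119 bases before it. Most of these cores lie outside the printed bases. At least 5 cores were present in 31 of 21669 protein-coding genes (0.143%). Among the other members Ccs and Commd1 held 1 core each in that window, where 25.4% of genes held at least 1, and the remaining 5 held none. A match of letters is a description and does not show that a factor binds.

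On GRCm39, Mt1 (ENSMUSG00000031765) spans chr8:94905710-94906955 and Mt2 (ENSMUSG00000031762) chr8:94898819-94900207, both on the plus strand and 5502 bases apart. Slc31a1 (ENSMUSG00000066150, chr4:62278085-62320861) and Slc31a2 (ENSMUSG00000066152, chr4:62180799-62220050) are neighbours as well, on the plus strand and 58034 bases apart. Between them Fkbp15 is annotated on the opposite strand and overlaps both genes. Atp7a (ENSMUSG00000033792) lies on the X chromosome at chrX:105070845-105171766, and its canonical transcript of 8143 nucleotides in 23 exons is the longest of the 9. Atox1 (ENSMUSG00000018585, chr11:55336780-55352132, minus strand) has the shortest, at 608 nucleotides. Ccs (ENSMUSG00000034108) lies at chr19:4874370-4889374 and Commd1 (ENSMUSG00000051355) at chr11:22846136-22932382, both on the minus strand, and Mtf1 (ENSMUSG00000028890) at chr4:124695897-124743593 on the plus strand. Commd1 shares its strand and part of its span with Commd1b, a protein-coding gene that was not among the genes counted.

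Library depth ran from 6869667 to 14708099 reads assigned to genes (median 8986463). All 8 macrophage markers, Adgre1, Csf1r and Lyz2 among them, had reads in every group. Markers of T cells (3 of 3) and of mast cells and eosinophils (5 of 5 listed in the files) had 0 reads in all groups, and 4 erythroid markers summed to at most 0.909 normalised counts. Of 8 neutrophil markers, Ly6g and Mpo had 0 reads throughout, but the summed normalised count of the list was 8.18 to 15.6 in unstimulated cells, 40.8 to 120 in LPS-stimulated cells, 84.3 to 438 in LPS-primed cells and 140 to 537 in LPS-tolerant cells, nearly all of it from S100a8. Of 6 stromal markers the sum was at most 6.36 in unstimulated cells and at most 84.4 in any group, and 4 dendritic cell markers and 4 B cell markers stayed at or under 11.8 and 17.3. These sums moved with LPS as several members did, and their part in the results was not tested. In bulk RNA, fewer cells of a kind and less RNA per cell cannot be told apart.

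Scaled to transcript length and library size (RPKM), the metallothioneins were the most abundant of the 9 genes. Averaged over 18 libraries, the RPKM level was 1039 for Mt2, 653 for Mt1 and 123 for Atox1, followed by 30.3 for Slc31a2, 27.6 for Slc31a1 and 19.9 for Ccs. The lowest levels were those of Commd1 at 9.50, Atp7a at 6.65 and Mtf1 at 2.42. In unstimulated cells the order began differently, with Mt1 at 179 ± 53.7 (SD, n = 3), Atox1 at 85.8 ± 20.2 and Mt2 at 39.3 ± 7.42 RPKM. As a difference between groups, the highest group mean was 109 times the lowest for Mt2, 9.34 times for Mt1, and between 4.01 and 4.65 times for Slc31a1, Atp7a and Slc31a2. For Ccs, Atox1, Commd1 and Mtf1 it was 1.55 to 1.73 times.

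**Figure D1:**
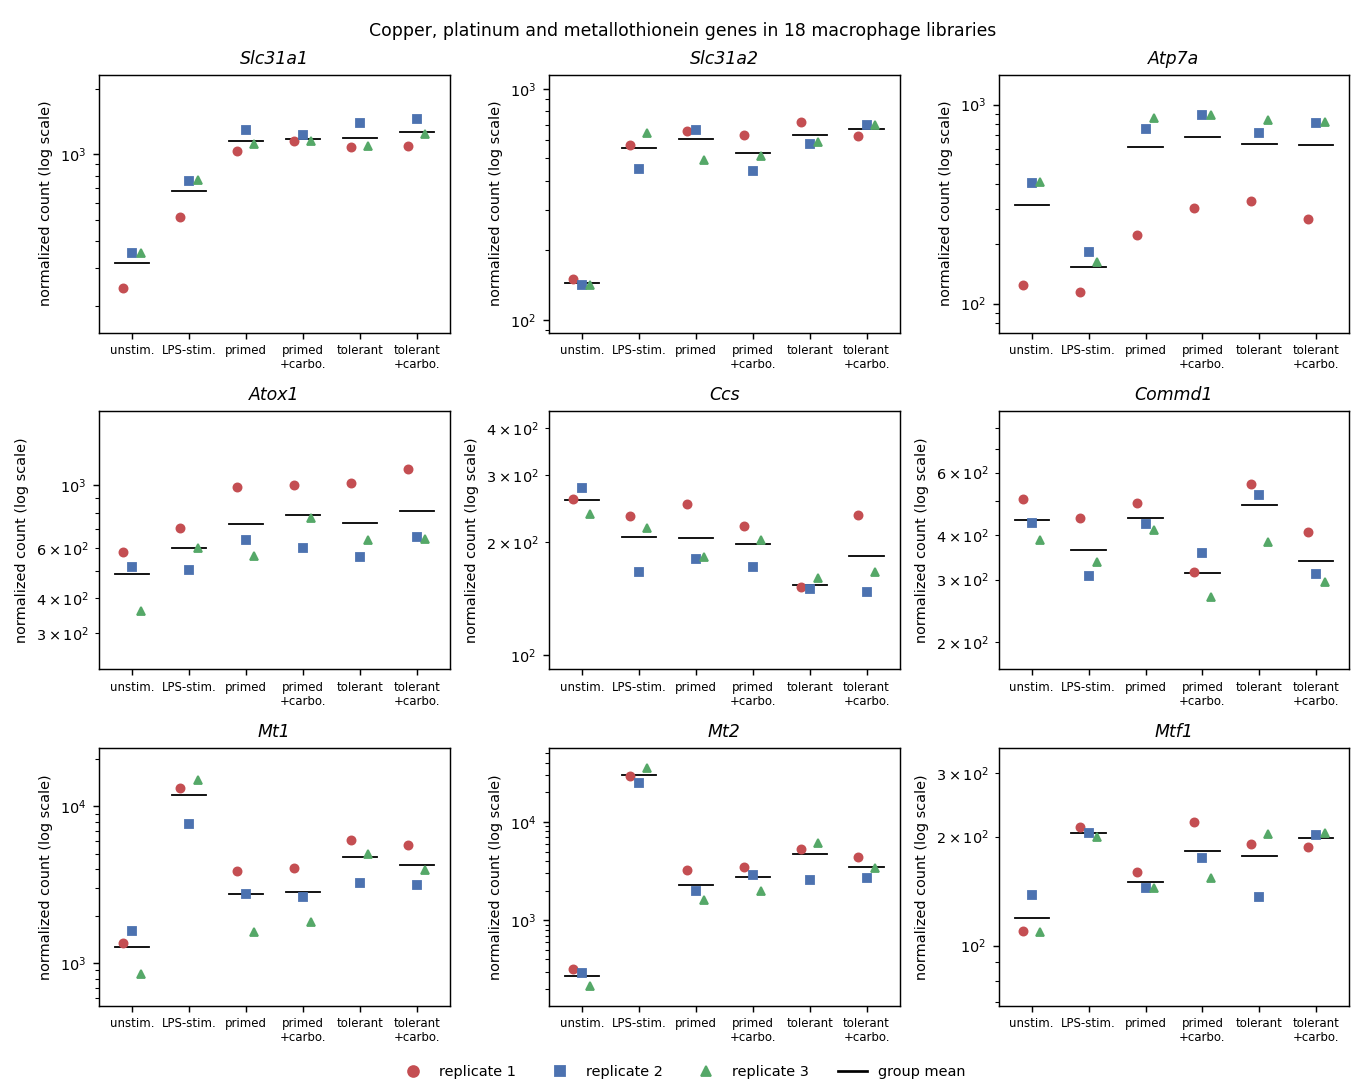
Normalised counts (log scale) of each gene in every library, by group; symbols mark the replicate number and black lines the group means. Mt1 and Mt2 peak in LPS-stimulated cells, Slc31a1 and Slc31a2 stand lowest in unstimulated cells, and replicate 1 of Atp7a lies below replicates 2 and 3 in all 6 groups.

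The first question was how a first exposure to LPS altered these genes, at the low dose and after 24 h of priming. At the low dose 5 of the 9 genes were higher than in unstimulated cells and none was lower, where 24.3% of all tested genes were called higher and 26.9% lower (edgeR quasi-likelihood test, adjusted p under 0.05). After priming 4 of 9 were higher and none lower, against 12.1% and 13.1% of all genes. The median log2 difference over the 9 genes was 0.79 at the low dose and 0.96 after priming, beside medians of -0.09 and -0.02 over all tested genes. With the study's own fold limit (log2 difference beyond 2) 2 genes passed in each, Mt1 and Mt2 at the low dose, where 12% of all genes passed, and Slc31a2 and Mt2 after priming, where 7.47% did. These 2 comparisons share the unstimulated libraries. Scaled by library size alone, the median of all genes moved to -0.43 at the low dose and -0.26 after priming, and the share of calls that were higher fell from 47.5% to 28.5% and from 48.1% to 26.4%. The 5 and 4 members called higher kept their direction under every scaling, although Mt1 after priming then had an adjusted p of 0.0714.

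Mt2 had the largest fitted difference of the 9 genes in both comparisons. Its normalised counts were 316, 289 and 216 in the 3 unstimulated libraries and 29330, 24840 and 35500 in the LPS-stimulated libraries. They were 3258, 2003 and 1619 in LPS-primed cells, so the 3 groups did not overlap and LPS-stimulated cells had the highest values. LPS-stimulated and LPS-primed cells differed in dose and possibly in time under LPS, and these cannot be told apart. Relative to unstimulated cells Mt2 was 109-fold higher in LPS-stimulated cells (95% interval 60.8 to 196, log2 difference 6.77, SE 0.40, adjusted p = 9.72e-10). In LPS-primed cells it was 8.37-fold higher (5.10 to 13.8, log2 difference 3.07, SE 0.34, adjusted p = 3.42e-06).

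Mt1 moved in the same direction but over a narrower range. Its normalised counts were 1352, 1607 and 858 in unstimulated cells, 13140, 7727 and 14780 in LPS-stimulated cells, and 3875, 2781 and 1595 in LPS-primed cells. Every LPS-stimulated library stood above the other 6, whereas the lowest primed library lay just under the highest unstimulated one. The difference was 9.34-fold in LPS-stimulated cells (95% interval 5.25 to 16.6, log2 difference 3.22, SE 0.39, adjusted p = 3.92e-06). After priming it was 2.16-fold (1.26 to 3.70, log2 difference 1.11, SE 0.37, adjusted p = 0.0335), and this call was lost without unstimulated replicate 1 (adjusted p = 0.0642) or 3 (0.129), without LPS-primed replicate 1 (0.167) or 2 (0.0676), and when all 6 libraries numbered 1 were left out (log2 difference 0.82, adjusted p = 0.149).

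Because the canonical transcripts of Mt2 and Mt1 are 748 and 762 nucleotides long, the ratio of their reads within a library compares them at nearly equal length. In unstimulated cells there were 0.234, 0.180 and 0.252 reads of Mt2 for each read of Mt1. In LPS-stimulated cells there were 2.23, 3.22 and 2.40, so the order of the pair turned over. The primed libraries had ratios of 0.841, 0.720 and 1.02, the tolerant libraries 0.870, 0.804 and 1.22, and all 6 libraries with carboplatin lay between 0.783 and 1.09. On the log2 scale the mean ratio was 3.56 higher in LPS-stimulated than in unstimulated cells and 1.95 higher in LPS-primed than in unstimulated cells, without overlap of the libraries. Each had a two-sided exact permutation p of 0.1 before adjustment for the 6 comparisons made, the smallest that 3 against 3 libraries allow. Together both transcripts took 0.0138 to 0.0239% of the counted reads in unstimulated libraries, 0.0349 to 0.0753% after priming, 0.0595 to 0.113% in tolerant cells and 0.320 to 0.505% in LPS-stimulated cells.

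**Figure D2:**
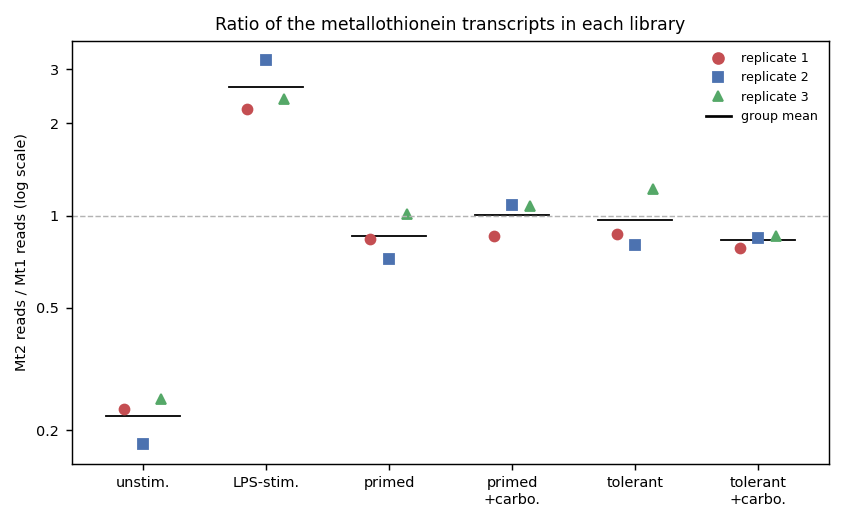
Reads of Mt2 divided by reads of Mt1 in each library (log scale), by group; black lines are group means and the dashed line marks equal numbers. Unstimulated libraries lie at 0.180 to 0.252 and LPS-stimulated libraries at 2.23 to 3.22, with the remaining 12 between 0.720 and 1.22.

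Mtf1, which encodes the factor that senses zinc for the metallothionein genes, had a smaller fitted difference. Normalised counts were 110, 138 and 109 in unstimulated cells and 212, 204 and 199 in LPS-stimulated cells, without overlap. The difference was 1.72-fold (95% interval 1.32 to 2.25, log2 difference 0.79, SE 0.18, adjusted p = 0.00173). In LPS-primed cells the counts were 160, 145 and 144, each above the unstimulated libraries, where 39.4% of tested genes did not overlap, but the log2 difference of 0.33 (SE 0.18) did not pass (adjusted p = 0.212).

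Both copper transporter genes were higher after LPS. Their group means had the same order, but LPS-stimulated and primed libraries stood apart for Slc31a1 only. Slc31a1, the gene of the plasma membrane copper pore, had normalised counts of 243, 352 and 351 in unstimulated cells, 513, 757 and 762 in LPS-stimulated cells and 1036, 1298 and 1120 in LPS-primed cells. The 3 groups did not overlap, and the primed cells stood highest. Slc31a1 was 2.15-fold higher at the low dose (95% interval 1.64 to 2.82, log2 difference 1.10, SE 0.19, adjusted p = 1.04e-04) and 3.65-fold higher after priming (2.77 to 4.80, log2 difference 1.87, SE 0.19, adjusted p = 1.23e-06). Slc31a2, which encodes the homologue in intracellular membranes, had counts of 151, 141 and 142 in unstimulated cells, among the tightest of any member. It had 569, 448 and 647 in LPS-stimulated cells and 656, 667 and 493 in primed cells, and these last 2 groups overlapped. The rise was 3.83-fold at the low dose (2.95 to 4.98, log2 difference 1.94, SE 0.18, adjusted p = 1.71e-07) and 4.18-fold after priming (3.22 to 5.44, log2 difference 2.06, SE 0.18, adjusted p = 2.32e-07). The libraries were made with a stranded kit, but whether reads were counted by strand is not stated. The part of reads from the stretches shared with Fkbp15 was not tested. Reads marked as ambiguous between genes were 0.103 to 0.286% of each library's total. Fkbp15 itself had a log2 difference of 0.06 after priming (adjusted p = 0.828) and was lower at the low dose (-0.94, adjusted p = 7.72e-05). Cdc26, which overlaps Slc31a1 on the opposite strand, had 0.04 (adjusted p = 0.926) and -0.16 (adjusted p = 0.617). Its part was not tested either.

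The exporter gene Atp7a differed between replicate numbers as well as between groups. Its normalised counts were 124, 405 and 410 in unstimulated cells, 115, 181 and 162 in LPS-stimulated cells and 222, 754 and 852 in LPS-primed cells, each given for replicates 1, 2 and 3 in turn. Replicate 1 was the lowest in every group, and within each replicate number LPS-stimulated cells were lower and primed cells higher than unstimulated cells. Without regard to replicate number neither difference passed, with log2 differences of -1.03 (SE 0.57, adjusted p = 0.140) at the low dose and 0.96 (SE 0.56, adjusted p = 0.236) after priming. With the replicate number as a block both did, at -0.91 (SE 0.19, adjusted p = 5.62e-04) and 0.94 (SE 0.18, adjusted p = 4.88e-04). From replicates 2 and 3 alone, the values were -1.24 (SE 0.14, adjusted p = 2.82e-05) and 0.97 (SE 0.14, adjusted p = 3.81e-04).

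**Figure D3:**
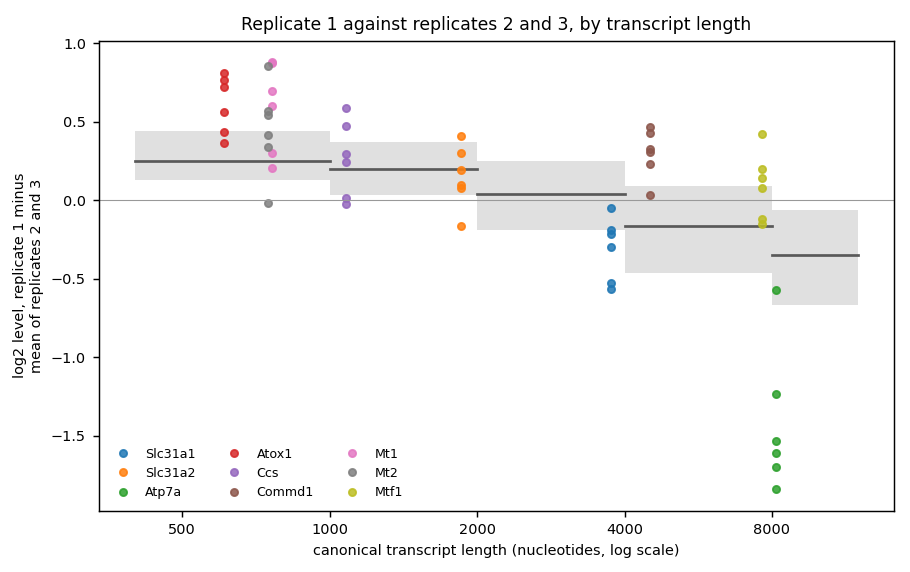
Log2 level of each gene in replicate 1 minus the mean of replicates 2 and 3, 1 point per group, against the length of the canonical transcript (log scale). Dark lines and grey bands are the medians and quartiles of all tested genes in 5 length classes; the median falls from 0.25 under 1 kb to -0.35 over 8 kb, and Atp7a lies below it.

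Replicate 1 differed from replicates 2 and 3 by transcript length over all tested genes, and Atp7a lay beyond that trend. Averaged over the 6 groups, replicate 1 stood 0.25 above the mean of replicates 2 and 3 (log2, median of 506 tested genes under 1 kb) and 0.35 below it for 686 genes over 8 kb. Among the members Atp7a deviated by -1.42, lower than all but 0.504% of tested genes and below the quartiles of its length class (-0.67 to -0.06), and the short transcripts of Atox1, Mt1 and Mt2 deviated by 0.61, 0.59 and 0.45. Slc31a1 deviated by -0.31, Ccs by 0.26 and Slc31a2 by 0.15. Commd1 and Mtf1, both between 4 and 8 kb, deviated by 0.30 and 0.09, above the median of -0.17 for that class. The part of replicate 1 in the group differences was not tested beyond the blocked values and the values without replicate 1.

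The chaperone genes and Commd1 had group means within a narrow range, and none passed with all libraries, TMM scaling and no block. Atox1, the chaperone for ATP7A, had group means of 486 ± 115 (SD, n = 3) normalised counts in unstimulated cells, 603 ± 102 in LPS-stimulated cells and 730 ± 228 in LPS-primed cells. The difference after priming (log2 0.59, SE 0.29, adjusted p = 0.162) passed with the replicate number as a block (0.56, SE 0.15, adjusted p = 0.00644), and all 3 numbered pairs were higher. Ccs, the chaperone for SOD1, had 258 ± 20.8 in unstimulated cells, 206 ± 35.1 in LPS-stimulated cells and 205 ± 41.0 in LPS-primed cells, with log2 differences of -0.33 in both comparisons (SE 0.20, adjusted p of at least 0.182). Scaled by library size alone Ccs passed in both, at -0.66 and -0.57, that is 0.23 and 0.31 below the shift of all genes under that scaling. Commd1 had 443 ± 60.2, 364 ± 72.9 and 446 ± 42.5 in the same order. Its log2 differences were -0.28 (SE 0.19, adjusted p = 0.225) at the low dose, where it passed when scaled by library size alone (-0.62, adjusted p = 0.00859, against -0.43 for the median gene), and 0.01 (SE 0.19, adjusted p = 0.974) after priming.

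**Figure D4:**
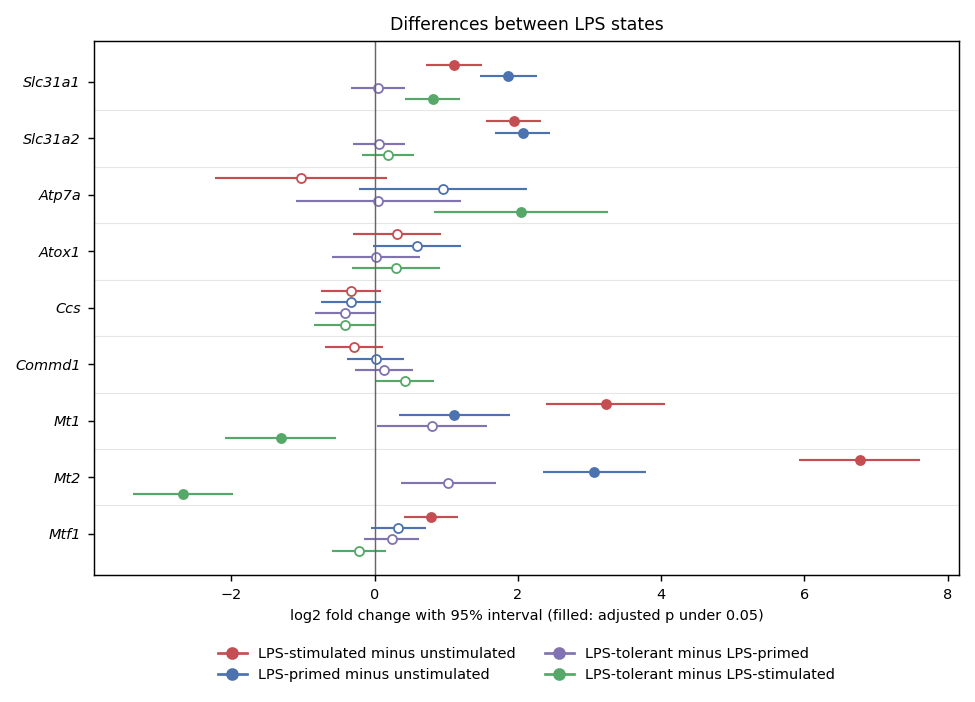
Log2 fold changes of the 9 genes between LPS states with 95% intervals, from the fit over all 18 libraries; filled points have an adjusted p under 0.05. Mt2 reaches 6.77 in LPS-stimulated against unstimulated cells and -2.68 in LPS-tolerant against LPS-stimulated cells, while Slc31a1, Slc31a2 and Atp7a lie within 0.06 of 0 in LPS-tolerant against LPS-primed cells.

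The second question was how tolerant cells, given the low dose after priming, compared with cells given the low dose alone. Of the 9 genes, Slc31a1 and Atp7a were higher in LPS-tolerant cells and Mt1 and Mt2 lower, where 16.2% of all tested genes were higher and 18.3% lower. With the study's fold limit, Atp7a and Mt2 passed, against 8.04% of all genes. The median difference was 0.18 over the 9 genes and under 0.01 over all genes. These cells differed in the priming dose, in the change of medium and possibly in the time after the low dose.

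The metallothioneins showed the lower response. Mt2 had normalised counts of 5305, 2599 and 6104 in tolerant cells, all under the lowest LPS-stimulated library at 24840. The difference was -2.68 on the log2 scale (SE 0.33, adjusted p = 9.23e-06), a 6.40-fold lower level. Mt1 had 6098, 3233 and 5010 in tolerant cells, under the 7727 of the lowest LPS-stimulated library, and was 2.49-fold lower (log2 difference -1.31, SE 0.37, adjusted p = 0.0101). Without tolerant replicate 2 the Mt1 difference stood at the limit (-1.10, adjusted p = 0.0502). Mtf1 had 191, 136 and 203 counts in tolerant cells, overlapping LPS-stimulated cells, with a log2 difference of -0.22 (SE 0.18, adjusted p = 0.381).

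Of the transport genes, Slc31a1 and Atp7a were higher in tolerant cells and Slc31a2 did not pass. Slc31a1 had 1080, 1392 and 1090 normalised counts in tolerant cells, above all LPS-stimulated libraries, and was 1.75-fold higher (log2 difference 0.81, SE 0.18, adjusted p = 0.00228). Slc31a2 had 721, 580 and 591, overlapping LPS-stimulated cells (log2 difference 0.18, SE 0.17, adjusted p = 0.436). Atp7a had 329, 723 and 839 in tolerant cells, above the highest LPS-stimulated library at 181. It was 4.12-fold higher (95% interval 1.77 to 9.60, log2 difference 2.04, SE 0.58, adjusted p = 0.0109), and blocking on replicate number gave 1.98 (SE 0.19, adjusted p = 1.95e-07).

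Among the chaperones and Commd1, none passed with all libraries and no block. Atox1 had 739 ± 245 (SD, n = 3) normalised counts in tolerant cells (log2 difference 0.29, SE 0.29, adjusted p = 0.472). Ccs had 154 ± 5.87, its lowest group mean, and each tolerant library lay under each LPS-stimulated one, where 44.2% of tested genes did not overlap (log2 difference -0.42, SE 0.20, adjusted p = 0.122; blocked -0.40, adjusted p = 0.0489). Commd1 had 487 ± 92.8, its highest group mean (log2 difference 0.42, SE 0.19, adjusted p = 0.0996; blocked 0.42, adjusted p = 0.0123), and passed also without LPS-tolerant replicate 3 (adjusted p = 0.0426) or LPS-stimulated replicate 1 (0.0314).

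The third question was how tolerant cells, given the second dose in fresh medium, compared with primed cells. Tolerant cells also spent 3 h more in culture. The second dose, the change of medium and the added time cannot be told apart. None of the 9 genes was called in LPS-tolerant against LPS-primed cells, where 3.6% of all tested genes were higher and 2.71% lower, and none passed the study's fold limit, as 0.681% of genes did. At an unadjusted p under 0.05, 2 members passed, Mt1 and Mt2, as did 2385 of the 11305 tested genes. DESeq2 called 1 member, Mt2, and 1116 of the 11387 genes it tested. Mt2 was 2.04-fold higher in tolerant cells (95% interval 1.29 to 3.22, log2 difference 1.03, SE 0.31, adjusted p = 0.0614) and higher in 3 of 3 numbered pairs, with 1 tolerant library, at 2599, inside the primed range. Mt2 passed with the block (1.04, SE 0.25, adjusted p = 0.00844), by DESeq2 (adjusted p = 0.0218), without the filter on low counts (0.0450), and on leaving out LPS-primed replicate 1 (1.37, adjusted p = 0.0273) or LPS-tolerant replicate 2 (1.31, adjusted p = 0.0176). Mt1 was 1.74-fold higher (1.02 to 2.96, log2 difference 0.80, SE 0.36, adjusted p = 0.217) and 0.83 with the block (SE 0.28, adjusted p = 0.0480). For Slc31a1, Slc31a2 and Atp7a the log2 differences were 0.05, 0.06 and 0.05, with 95% intervals of 0.79 to 1.34-fold, 0.81 to 1.34-fold and 0.46 to 2.31-fold. Ccs had a log2 difference of -0.41 (SE 0.20, adjusted p = 0.257), with its tolerant libraries under all primed ones, as 26.2% of tested genes did not overlap there, and Atox1, Commd1 and Mtf1 had 0.02, 0.13 and 0.24 (adjusted p of 0.502 to 0.989).

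The response to the low dose was then compared between primed and unprimed cells by an interaction term, (LPS-tolerant minus LPS-primed) minus (LPS-stimulated minus unstimulated). In primed cells that response includes the change of medium and 3 h more in culture, which cannot be told apart from the dose. With all libraries and no block, 4 of the 9 genes had a smaller response in primed cells and no positive term was called among them. Of all tested genes 23.8% were called in either direction. The difference of responses was -5.75 for Mt2 (SE 0.47, adjusted p = 1.32e-07) and -2.43 for Mt1 (SE 0.52, adjusted p = 0.00239). It was -1.88 for Slc31a2 (SE 0.25, adjusted p = 2.52e-05) and -1.06 for Slc31a1 (SE 0.26, adjusted p = 0.00626). Before the second dose Slc31a1 stood at 1151 ± 134 normalised counts, with every primed library above every LPS-stimulated one (677 ± 142; SD, n = 3). Slc31a2 stood at 605 ± 97.2, overlapping LPS-stimulated cells (555 ± 100), and Mt1 and Mt2 were lower in every primed than in every LPS-stimulated library. These levels in primed and LPS-stimulated cells were not compared by a test. For Mtf1 the term was -0.55 (SE 0.26, adjusted p = 0.141), and for Atp7a 1.08 (SE 0.79, adjusted p = 0.362). From replicates 2 and 3 alone the Atp7a term passed (1.22, SE 0.20, adjusted p = 8.78e-04). There the log2 difference at the low dose was -0.03 in primed cells and -1.24 in unprimed cells, from 2 libraries a group. With all libraries and no block the decrease in unprimed cells was not called (-1.03, SE 0.57, adjusted p = 0.140). With the block, where the check of pairing was not passed, the term was 1.04 (SE 0.26, adjusted p = 0.00447). Ccs, Atox1 and Commd1 had values between -0.29 and 0.41, with adjusted p of at least 0.309. The median was -0.55 over the 9 genes and 0.06 over all genes. Scaled by library size alone the median of all genes was 0.30. The share of calls with a positive term rose from 44.2% to 63.3%, but the 4 members kept their sign.

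The last question was whether carboplatin, a platinum drug that could meet the copper transporters and metallothioneins, altered their transcripts. In the fit without the replicate block, none of the 9 genes was called in primed or in tolerant cells, where 0.372% and 0.425% of all tested genes were (edgeR). The study's own limits for carboplatin, a log2 difference beyond 2 with an adjusted p under 0.25, passed no member either, against 0.265% and 0.389% of genes, nor did an adjusted p under 0.25 alone, against 1.2% and 1.65%. At an unadjusted p under 0.05, 1 member passed in each state, Commd1 in both. Of the 11305 tested genes, 776 passed in primed and 761 in tolerant cells. DESeq2 called no member in either state. The fitted folds of the 9 genes lay between 0.703 and 1.22 in primed cells and between 0.695 and 1.19 in tolerant cells. Their 95% intervals stayed within a 2-fold change for 8 of 9 genes in primed cells (all but Atp7a) and for 7 of 9 in tolerant cells (all but Atp7a and Mt2).

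For the transporter genes the values with and without the drug lay side by side. Slc31a1 had 1151, 1234 and 1148 normalised counts in primed cells with carboplatin, inside the range without it, a 1.02-fold difference (95% interval 0.785 to 1.33). In tolerant cells with carboplatin it had 1095, 1456 and 1241, a 1.06-fold difference (0.817 to 1.39). Slc31a2 differed by 0.872-fold (0.680 to 1.12) and 1.07-fold (0.832 to 1.37), with overlapping groups. Atp7a had 304, 884 and 885 in primed cells with the drug and 265, 805 and 818 in tolerant cells, where replicate 1 was again the lowest, and its intervals ran from 0.509 to 2.53-fold and from 0.448 to 2.23-fold. From replicates 2 and 3 alone its log2 differences were 0.15 (SE 0.14) and 0.04 (SE 0.14).

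The metallothioneins did not pass either. Mt1 had 4046, 2664 and 1838 normalised counts in primed cells with carboplatin, a 1.04-fold difference (95% interval 0.610 to 1.76), and 5683, 3155 and 3916 in tolerant cells, a 0.889-fold difference (0.524 to 1.51). Mt2 had 3475, 2892 and 1975 in primed cells, higher than without the drug in 3 of 3 numbered pairs (1.21-fold, 0.769 to 1.91, adjusted p = 0.980). In tolerant cells it had 4449, 2675 and 3371, lower in 2 of 3 pairs (0.749-fold, 0.476 to 1.18, adjusted p = 0.981). The difference between both states was -0.69 (SE 0.44, adjusted p = 1.00). Mtf1 had log2 differences of 0.29 (SE 0.18) and 0.17 (SE 0.18), with adjusted p of 0.862 and 1.00.

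Commd1 had the largest fitted difference with carboplatin in both states, with lower values under the drug, but did not pass in the fit without the block. Its normalised counts were 494, 431 and 414 in primed cells without the drug and 316, 355 and 269 with it, and these groups did not overlap, as was the case for 12.9% of all tested genes. In tolerant cells they were 558, 520 and 382 without and 409, 312 and 295 with the drug, lower in 3 of 3 numbered pairs but overlapping. The log2 differences were -0.51 (SE 0.19, adjusted p = 0.499) and -0.52 (SE 0.19, adjusted p = 0.475). With the replicate block they were -0.51 (SE 0.13, adjusted p = 0.0602) and -0.52 (SE 0.13, adjusted p = 0.0487), so that only the second passed. With that block 200 of the 11305 tested genes were called in each state. Atox1 differed by 0.11 and 0.14 (SE 0.29) and Ccs by -0.05 and 0.25 (SE 0.20), all with an adjusted p of at least 0.989. No gene of the 11305 tested had a carboplatin effect called different between tolerant and primed cells (edgeR, 0%; 0 by DESeq2; 131 genes at an unadjusted p under 0.05, none of them a member).

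**Figure D5:**
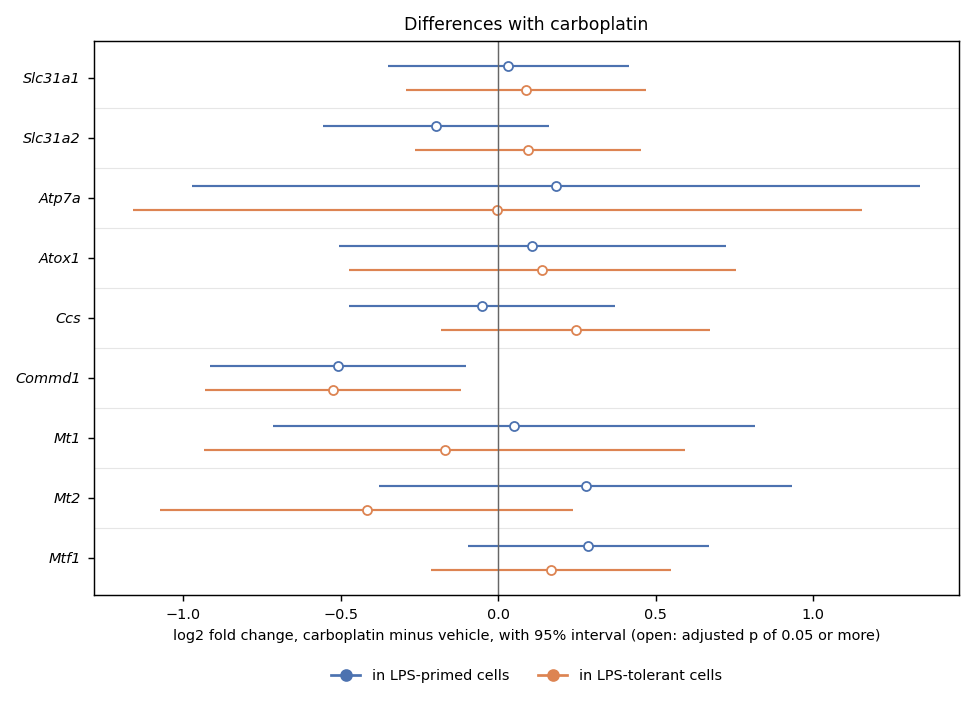
Log2 fold changes of the 9 genes with carboplatin against vehicle in LPS-primed and LPS-tolerant cells, with 95% intervals that are not adjusted for the number of genes. All points are open because none has an adjusted p under 0.05 in the fit without the replicate block. Commd1 lies at -0.51 and -0.52 and Atp7a has the widest intervals.

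Wider lists of 92 genes for copper, zinc, platinum and glutathione handling, of which 65 were tested, set the members in context. Relative to unstimulated cells 23 of the 65 were higher and 12 lower at the low dose, and 19 higher and 6 lower after priming. Over all tested genes, 24.3% were higher and 26.9% lower at the low dose, and 12.1% and 13.1% after priming. The median log2 difference of the 65 was 0.15 and 0.16, beside -0.09 and -0.02 over all genes. The copper exporter Atp7b and the metallothioneins Mt3 and Mt4 had at most 4 reads in any library and were not tested. Of 11 tested zinc importers of the SLC39 family, 4 were higher and 1 lower in each comparison with unstimulated cells, where the share of all genes called higher was 24.3% at the low dose and 12.1% after priming. Slc39a14, an importer of zinc and iron, rose from 51.0 ± 17.9 to 2876 ± 1274 normalised counts (SD, n = 3) at the low dose. It stood at 413 ± 102 after priming, and among these 3 groups Mt1 and Mt2 had the same order. The order was not shared in tolerant cells. There the mean of Slc39a14 was 311 ± 53.7, lower than after priming. The means of Mt1 (4781 against 2750) and Mt2 (4669 against 2293) were higher in tolerant than in primed cells. Of 6 tested copper enzymes, Sod1, the enzyme loaded by CCS, was lower after priming (log2 difference -1.11, SE 0.22, adjusted p = 0.00113), while Cp, the gene of the copper oxidase ceruloplasmin, was higher (3.74, SE 0.76, adjusted p = 0.00136). Of 11 genes that deliver copper to cytochrome oxidase, Cox17 was the only one called after priming, as higher (0.98, SE 0.26, adjusted p = 0.00859). Of all tested genes 12.1% were higher and 13.1% lower there. At the low dose 2 of the 11 were higher and 3 lower, against 24.3% and 26.9% of all genes.

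Commd1 belongs to a family whose other members were tested alongside their partners in a list of 15 genes. At the low dose 5 of the 15 were lower and 1 higher, near the 26.9% of all genes that were lower. In tolerant against LPS-stimulated cells 6 were higher and none lower, where 16.2% and 18.3% of all genes were, with a median of 0.40 beside 0.42 for Commd1 itself. Vps26c, a subunit of the retriever complex, was among the 6 (log2 difference 1.22, SE 0.16, adjusted p = 1.45e-05), as was Commd8 (0.77, SE 0.13, adjusted p = 1.56e-04). Of 7 other genes linked to platinum transport, 6 were higher at the low dose, against 24.3% of all genes, among them Abcc1, a pump for glutathione conjugates (1.35, SE 0.19, adjusted p = 1.60e-05). Of 6 glutathione genes, 3 were higher after priming, against 12.1% of all genes, among them the cystine importer gene Slc7a11 (6.27, SE 0.66, adjusted p = 1.90e-06). With carboplatin a single gene of the 65 was called in each state, Slc39a11, a zinc transporter gene. Of all tested genes 0.372% were called in primed and 0.425% in tolerant cells. It had 154, 218 and 178 normalised counts in primed cells and 75.6, 60.2 and 69.4 with the drug (log2 difference -1.42, SE 0.23, adjusted p = 0.00460), and 180, 147 and 137 against 70.8, 37.6 and 50.5 in tolerant cells (-1.55, SE 0.23, adjusted p = 0.00317).

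The genes whose pattern over the 18 libraries was most like a member's were found by the root mean square difference of log2 levels, each centred on its own mean. For Mt1 they were Bhlhe40 (0.35), P2ry2 (0.36) and Ppan (0.38), and for Mt2 they were Cav1 (0.53), Adora2b (0.54) and Tnfaip3 (0.55). Mt2 was not among the nearest genes of Mt1, at 1.05 and rank 3362, and Mtf1 stood at 0.84 and rank 890. For Slc31a1 they were Ctsc (0.24), P4ha1 (0.26) and Nus1 (0.26), and for Slc31a2 they were Jmjd6 (0.26), Nus1 (0.27) and Metap1 (0.27). Slc31a2 held rank 43 among the neighbours of Slc31a1, at 0.39. For Atp7a they were Pik3c2a (0.44), Csgalnact2 (0.49) and Dipk2a (0.50), and all values share the same libraries and scaling.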

How the data were processed

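Total RNA of 18 macrophage cultures was sequenced (stranded poly(A) libraries, paired-end). The authors mapped reads to GRCm39 with HISAT2 and deposited raw counts per gene from HTSeq, 1 table per library; tool versions, gene annotation and the strand setting are not given in the sources used here. Rows naming no gene held 41.5 to 46.9% of each total and were left out.

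Counts were tested with edgeR 4.0.16 in R 4.3.3 (quasi-likelihood F test, TMM scaling, filterByExpr defaults, prior count 0.125, 1 fit of group means over 18 libraries) in place of the DESeq2 test of the study, which was run as an alternative (version 1.42.0). Calls are at a Benjamini-Hochberg adjusted p under 0.05 over 11305 genes. A normalised count is a count divided by the TMM-scaled library size, times the mean of those sizes. Levels per kilobase use the canonical transcript of GENCODE release M39, found for 97.3% of tested genes. No 2 of the 153 library pairs had identical counts. The test was checked on simulated counts, with changes placed in LPS-primed against unstimulated cells. It recovered 5.97% of 1.5-fold, 44.8% of 2-fold and 89.4% of 4-fold changes, and 9 of 102 calls were false. Smaller differences can therefore be missed. Promoters came from the RefSeq table for GRCm39. 8 of 9 members had an entry, and Ccs had none.

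Groups share replicate numbers. Same-numbered libraries deviated together (correlation of deviations 0.183 to 0.574, every pair over 0.1) in 7 of the 8 comparisons, so blocked values are given there. In the interaction of second and first dose the lowest was 0.0631.

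Members were all named. From the wider lists, up to 3 called genes of each list with the smallest p in a comparison were eligible. Members and lists were chosen with earlier results of these data known. Alternatives were other scalings, no filter, DESeq2, the block, only the groups compared, other limits, a prior count of 2 and leaving out each library. Leaving out all libraries numbered 1 was added after the data were seen.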

Additional observations from a re-analysis of the deposited data

Results flagged for a closer look

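The response to 10 ng/ml LPS differed between primed and unprimed cells for 4 of the 9 genes by the interaction term of the edgeR fit. In primed cells this dose came with fresh medium, and the dose and the medium change cannot be told apart. The difference of responses was -5.75 for Mt2 (SE 0.47, adjusted p = 1.32e-07), -2.43 for Mt1 (SE 0.52, adjusted p = 0.00239), -1.88 for Slc31a2 (SE 0.25, adjusted p = 2.52e-05) and -1.06 for Slc31a1 (SE 0.26, adjusted p = 0.00626), all on the log2 scale. All 4 passed under each of the 20 settings tried for this term, with ranges of -5.99 to -5.41 for Mt2, -2.70 to -2.10 for Mt1, -2.02 to -1.65 for Slc31a2 and -1.22 to -0.81 for Slc31a1. Groups of 3 libraries are too small for the check for a library far from the others.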

How the results depend on the processing

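Of 1116 recomputed member differences, 1088 stayed on the same side of the threshold, 7 lost and 21 gained a call, and no called difference changed sign; a difference that passed in neither setting was given no direction, and 76 of these had the opposite sign. Counts of called members moved as follows. With an adjusted p under 0.25, 7 members were called after priming (4 in the report) and 8 at the low dose (5). LPS-tolerant cells had 6 against LPS-stimulated cells (4) and 2 against LPS-primed cells (0), and the interaction of second and first dose had 5 (4). The share of all genes under 0.25 is not given for these comparisons. At the limit of the report 2847, 5789, 3900, 713 and 2691 of the 11305 tested genes were called, in the same order. With the study's fold limit, 2 were called after priming, 2 at the low dose, 2 in LPS-tolerant against LPS-stimulated cells (4) and 2 for the interaction of second and first dose (4). In LPS-tolerant against LPS-primed cells 1 member was called without the filter, 1 by DESeq2 and 2 with the replicate block, and 0 to 1 when a library was left out. The replicate block also called 1 member with carboplatin in tolerant cells, and for the interaction of second and first dose, where the numbers did not pass the check of pairing, it called Atp7a (1.04, SE 0.26, adjusted p = 0.00447). The block gained 9 calls in 72, each given in the report or here, and changed no other call. Leaving out a library gave 3 to 4 members after priming, 5 at the low dose, 3 to 5 in LPS-tolerant against LPS-stimulated cells, 4 for the interaction and 0 in the carboplatin comparisons.

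Over all genes, the calls with carboplatin ranged widely, from 42 in primed and 48 in tolerant cells to 200 in each with the block, 123 and 153 by DESeq2, and 19 and 6 when only the groups compared were fitted. With the block 2034 genes were called in LPS-tolerant against LPS-primed cells, in place of 713, and 4367 in place of 2847 after priming. The causes were not tested. With 3 libraries a group, the widest member interval was that of Atp7a, and small changes of long or short transcripts are limited by the spread of replicate 1.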
